A study of Mus musculus with 6 samples.

Results

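The wild-type (WT) course is a series of mouse embryonic fibroblast cultures sampled at passages 2, 3 and 4, with 1 RNA library at each passage. Its members are the 3 libraries whose titles call them WT controls, out of 6 libraries in the study. The other 3 are knockout (KO) libraries of the same passages. The labels state normal culture and no treatment for every library, name neither the knocked-out gene nor the mouse strain or embryo age, and do not say whether passages or genotypes came from separate cultures, so each p-value below measures only the spread between these libraries. The genotype here follows the titles, because a second label, the genotype tag, gives WT also for the KO-titled cultures at passages 3 and 4.

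Mouse embryonic fibroblasts are primary cells grown out of a minced embryo. The first cultures also hold other embryonic cells, such as tissue macrophages, keratinocytes, endothelial cells and cells on the way to becoming fat, and these need not survive or attach when the dish is detached and replated at each passage. Embryonic fibroblasts kept in ordinary air do not divide indefinitely: the cell cycle inhibitors of the Cdkn2a locus and the p53 target Cdkn1a are known to build up as such cultures approach senescence, the lasting arrest of division.

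The WT libraries held 42335628, 41933793 and 24853121 expected counts (read numbers estimated by the authors' quantification) at passages 2, 3 and 4. The passage 4 library was therefore the shallowest. Xist, the RNA that silences an X chromosome in female cells, had between 5 and 12 counts in each WT library, while the Y-linked helicase gene Ddx3y had 46.5, 37.4 and 35.5 TPM (a level scaled for transcript length and library depth). The KO libraries had Xist at 45.6 TPM or above and Ddx3y at 0.42 TPM or below, so the sex of the cells went with the titles, not with the tag, and sex and genotype cannot be told apart. The fibroblast label matched the data: Col1a1, the main chain of type I collagen, took more counts than any other gene in each WT library, at 7237, 6205 and 4742 TPM, and the intermediate filament gene Vim stood at 2640, 2048 and 2457 TPM.

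With 1 library a passage the WT course has no replicate spread, so it is described by size and direction. Changes are log2 ratios of TMM-scaled counts, with 2 prior counts added, which understates the change of low genes. TPM values are printed as levels, and on log2(TPM + 1) the median of all genes was itself -0.22 from passage 2 to 3 and 0.12 from 3 to 4, so TPM levels at passage 3 read low beside scaled counts. In all, 14086 genes entered with at least 1 CPM (a depth-scaled count) in 1 or more WT libraries. At passage 4, 359 genes (2.55%) were at least 2-fold higher than at passage 2 and 926 (6.57%) at least 2-fold lower. The first step gave 205 higher (1.46%) and 350 lower (2.48%), and the second 219 higher (1.55%) and 746 lower (5.3%). Of 1706 genes whose highest and lowest WT library differed at least 2-fold, 727 (42.6%) were lower at each later passage, 292 (17.1%) were higher at each later passage, 339 (19.9%) peaked at passage 3 and ended lowest, and 142 (8.32%) were lowest at passage 3 and ended highest.

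A test was possible only across both genotypes. A straight line over passages was fitted to all 6 libraries with genotype as a term, and edgeR's quasi-likelihood test called 461 of 16603 genes higher per passage (2.78%) and 577 lower (3.48%), 6.25% in either direction, at an adjusted p under 0.05. In what follows "rose" and "fell" are used only for genes called by that fit. The counts changed when 1 library was left out. They were 97 and 183 without the WT passage 2 library, 113 and 165 without KO passage 2, and 266 and 384 without KO passage 3. They were 168 and 203 without WT passage 4, 98 and 188 without KO passage 4, and 583 and 703 without WT passage 3. Each of these fits has fewer libraries to test with. A lost call therefore does not by itself show that it rested on the library left out. Of 106 genes chosen by the naming rule and called, 38 were called in each of the 6 fits that left out 1 library. With genotype taken from the tag in place of the title, no gene was called.

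**Figure D1:**
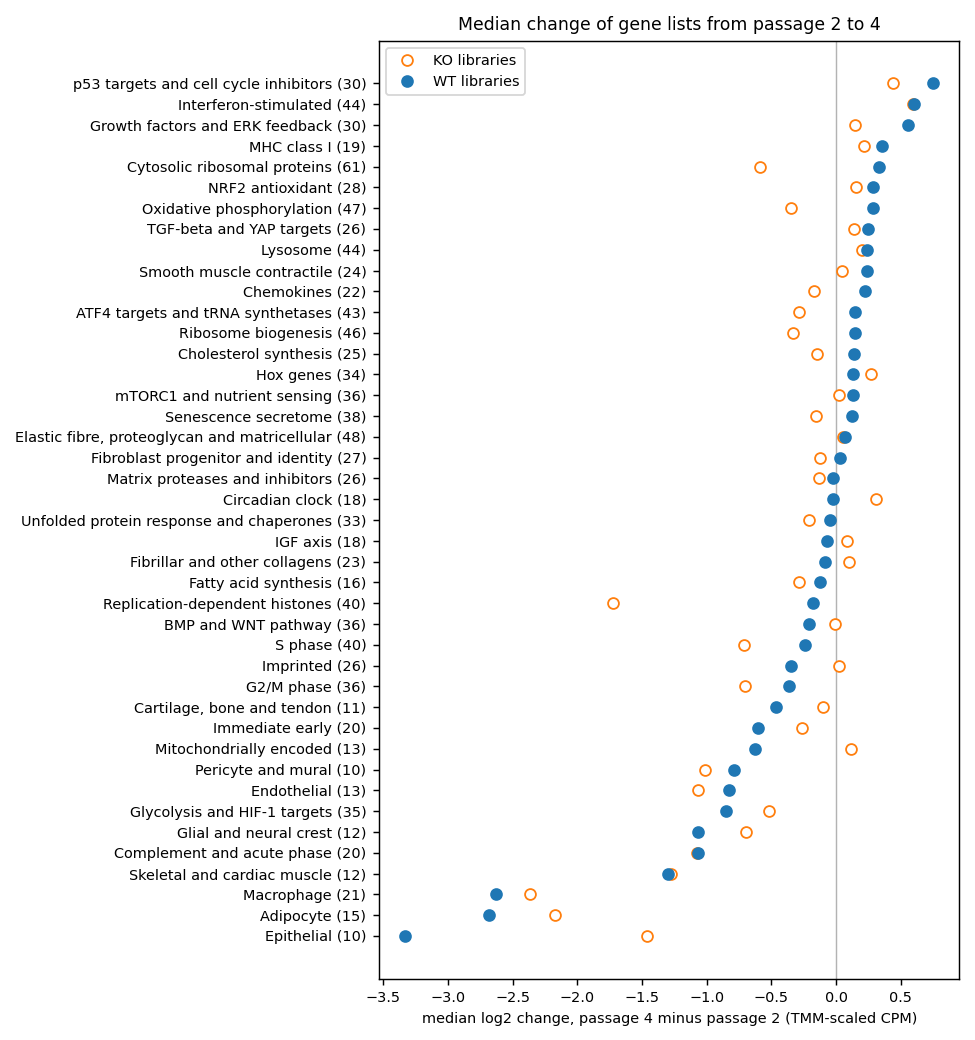
Each row is 1 gene list, with the number of its genes that entered in parentheses. The axis is the median log2 change from passage 2 to passage 4, filled for the WT libraries and open for the KO libraries. In WT the lists of other cell types sit at the lower left, down to -3.33 for epithelial genes, and the p53 list is highest at 0.75.

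Transcripts of macrophages, the tissue phagocytes that seed the embryo early, made up the most uniform falling group. Of 24 macrophage genes listed, 21 entered, and each of the 21 was at least 2-fold lower at WT passage 4 than at passage 2 (median -2.63, against 0.01 for all genes that entered) and fell in the fit. Their summed level was 640.0, 294.8 and 91.1 TPM at WT passages 2, 3 and 4, so it dropped at both steps, and 436.9, 155.7 and 84.9 TPM in the KO libraries. Without 1 library at a time, between 15 and 21 of them were still called. Bulk RNA cannot tell fewer cells of a type from less RNA per cell.

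Among the genes that define the macrophage, Lyz2, which encodes lysozyme, was the most abundant, at 404.6, 200.8 and 52.1 TPM. Adgre1, which encodes the surface antigen F4/80, was at 26.0, 8.24 and 2.04 TPM and fell by 1.58 ± 0.11 (SE) on the log2 scale per passage (adjusted p = 0.00117, 6 libraries). Csf1r, the receptor for the growth factor that macrophages need, was at 8.0, 2.92 and 1.52 TPM, and Ptprc, the leukocyte antigen CD45, at 3.63, 1.07 and 0.41 TPM. In each of these 4 genes passage 3 lay between the others. The 3 chains of complement C1q had the largest changes among members with a mean of at least 1 CPM: C1qa went from 9.08 to 2.04 and 0.50 TPM, C1qb from 11.1 to 3.04 and 0.68, and C1qc from 8.75 to 1.77 and 0.67. C1qa rested on 200, 51 and 7 counts, and its change of -3.80 had a 95% counting interval of -5.37 to -2.96.

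Genes outside that list that macrophages are known to express stood among the 15 largest WT decreases. Msr1, the scavenger receptor, was at 19.2, 7.54 and 1.36 TPM, C3ar1, a receptor for complement C3a, at 16.0, 4.1 and 1.5 TPM, and Lcp1, the actin-bundling protein of leukocytes, at 23.9, 7.73 and 2.41 TPM. All 3 fell. The macrophage mannose receptor Mrc1, a member of the list, was at 3.32, 0.65 and 0.29 TPM. Phagocyte chemokines followed the same order: Ccl3 was at 36.3, 19.9 and 3.51 TPM, Ccl6 at 51.5, 31.5 and 4.37 TPM, and Ccl9 at 29.1, 10.5 and 2.44 TPM. Ccl3, Ccl6 and Ccl9 fell, although the call of Ccl6 was lost without KO passage 2, KO passage 4 or WT passage 4, and that of Ccl3 without KO passage 4. The summed macrophage level moved with these genes in the same libraries, and its part in them was not tested.

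Fat cell genes were the second group. Of 18 adipocyte genes listed, 15 entered, each was lower at WT passage 4 than at passage 2, and 11 were at least 2-fold lower (median -2.68). In the fit 9 of the 13 with enough counts fell and none rose, with 5 to 11 called when 1 library was left out. Adipoq, which encodes the hormone adiponectin, was at 14.3, 1.17 and 0.30 TPM, Cfd, which encodes adipsin, at 13.5, 1.05 and 0.35 TPM, and Plin1, the coat protein of lipid droplets, at 5.53, 0.67 and 0.12 TPM. Most of the loss in these 3 genes lay between passages 2 and 3. Adipoq fell by 2.78 ± 0.16 (SE) on the log2 scale per passage (adjusted p = 0.000748), and it was called in each fit that left out 1 library.

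The fat-associated genes did not all follow 1 time course. Fabp4, the fatty acid carrier of adipocytes and some macrophages, was at 93.8 and 77.5 TPM at passages 2 and 3 and at 13.6 TPM at passage 4, so its loss lay in the second step. Cd36, a fatty acid receptor that macrophages share, was at 29.0, 7.88 and 1.87 TPM. Pparg, the factor that drives adipocyte differentiation, was at 6.15, 3.20 and 3.70 TPM, and its change from passage 2 to 4 was -0.52, within 2-fold and not called (adjusted p = 0.652). Plin4, another lipid droplet protein and 1 of the 15 largest decreases, was at 8.62, 1.09 and 0.37 TPM.

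**Figure D2:**
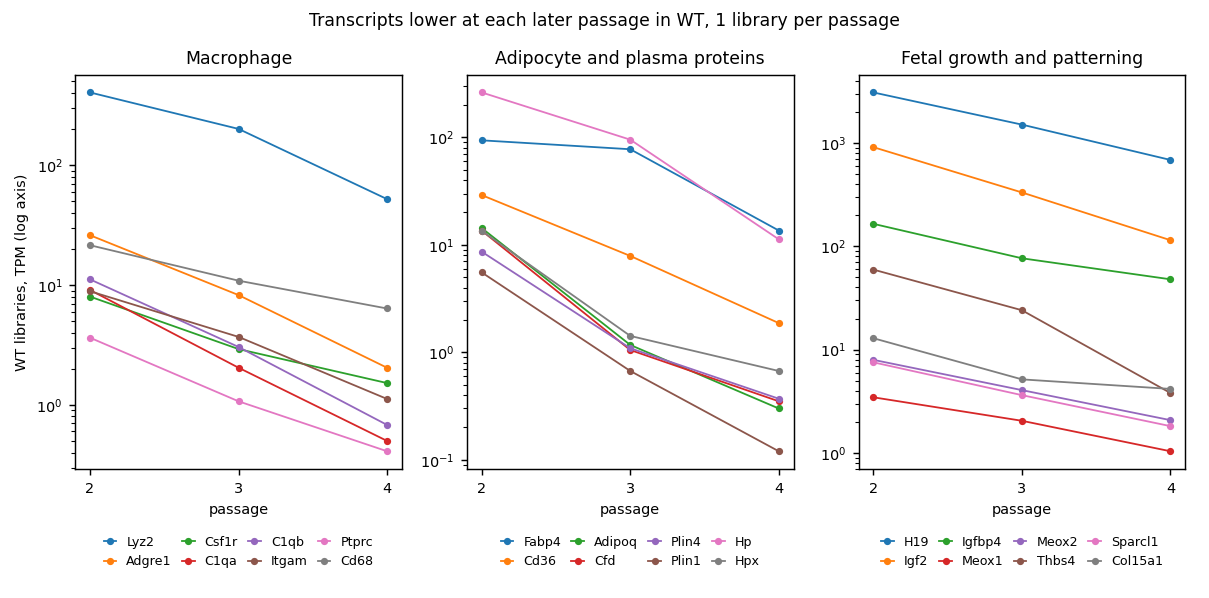
Each line is 1 gene in the 3 WT libraries, with passage on the horizontal axis and TPM on a log axis. Every gene drawn is lower at each later passage: Lyz2 goes from 404.6 to 52.1 TPM, Hp from 261.6 to 11.3 TPM, and Igf2 from 911.3 to 114.7 TPM.

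Plasma proteins of the acute phase, which the liver secretes in inflammation and which fat cells and fibroblasts also make, were lower with passage. Of 24 complement and acute phase genes listed, 20 entered, 10 were at least 2-fold lower and 2 at least 2-fold higher (median -1.07 as scaled counts and -0.87 as log2(TPM + 1)). The fit called 9 as fallen and 2 as risen, with 4 to 10 and 0 to 2 when 1 library was left out. Haptoglobin, Hp, the carrier of free haemoglobin and 1 of the 15 largest WT decreases, was at 261.6, 95.2 and 11.3 TPM and fell by 2.17 ± 0.20 (SE) on the log2 scale per passage (adjusted p = 0.0034, or 0.052 without KO passage 2). Haemopexin, Hpx, which carries free haem, was at 13.5, 1.42 and 0.67 TPM, and Lrg1, a secreted leucine-rich glycoprotein, at 7.80, 0.89 and 0.20 TPM. Hpx and Lrg1 had 14 and 4 counts at passage 4. Cfb, factor B of complement, was at 56.2, 18.1 and 9.59 TPM, and C3 at 72.7, 54.1 and 25.4 TPM.

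Other members of that list went the other way or not in order. Apod, a lipid carrier of quiescent fibroblasts, was at 53.4, 70.3 and 154.5 TPM and rose (adjusted p = 0.0098, or 0.084 without WT passage 2 and 0.05 without WT passage 4). Saa3, a serum amyloid made outside the liver, peaked at passage 3, at 1275, 1939 and 1006 TPM.

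Surface epithelium genes were lower with passage, several of them down to a few counts. Of 18 epithelial genes listed, only 10 entered, 9 of those were at least 2-fold lower at WT passage 4 (median -3.33), and 4 fell, with 1 called without WT passage 4, 2 without WT passage 2, and up to 5 without another library. The basal keratins Krt5 and Krt14, which mark the deepest layer of skin, had 251 and 212 counts at passage 2, 10 and 8 at passage 3, and 1 each at passage 4. For Krt5 that is a change of -5.94 with a 95% counting interval of -12.5 to -4.68, so its size is poorly fixed. The desmosome gene Dsp was at 1.37, 0.16 and 0.13 TPM in WT, and its KO change was 0.08.

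Endothelial genes split. Cdh5, the cadherin of vessel junctions, went from 2.52 to 0.18 and 0.07 TPM and Pecam1, the surface antigen CD31, from 2.27 to 0.25 and 0.23 TPM. Cdh5 and Pecam1 had 4 and 6 counts at passage 4. Both fell, but both calls were lost without WT passage 2, WT passage 4 or KO passage 4. Flt1, a receptor for vascular growth factor that is listed with them, was at 64.6, 69.4 and 71.7 TPM, so it carried most of the list's summed level of 107.1, 100.3 and 99.1 TPM and did not follow Cdh5. Of 20 endothelial genes 13 entered, 6 were at least 2-fold lower and 5 fell, with 0 to 7 called when 1 library was left out, 0 without KO passage 4 or WT passage 2.

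Glial and neural crest genes were lower mainly after the second step. Of 17 glial and neural crest genes 12 entered and 7 were at least 2-fold lower at passage 4 (median -1.06, of which -0.12 came in the first step). Sox10, the master factor of Schwann and pigment cells, was at 7.0, 5.48 and 2.2 TPM, and the receptor gene Erbb3 at 5.83, 3.40 and 1.40 TPM. Both were called as fallen, but not without WT passage 2, WT passage 4 or KO passage 4, and Sox10 also not without KO passage 2. Des, the desmin filament of muscle, was at 28.7, 23.1 and 8.76 TPM. Of 15 erythroid genes only the transferrin receptor Tfrc entered, which dividing cells of most kinds express, and 7 had no count in any WT library.

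The locus of the fetal growth factor Igf2 and the neighbouring noncoding RNA H19 lost more transcript, counted in TPM, than any cell type marker above. The 2 genes lie side by side on chromosome 7 (GRCm38, 142650766 to 142666816 and 142575529 to 142578143) and are imprinted, which means that each is read from 1 parental copy. H19 was at 3085, 1507 and 686.0 TPM at WT passages 2, 3 and 4 and Igf2 at 911.3, 332.3 and 114.7 TPM. Igf2 fell by 1.41 ± 0.08 (SE) on the log2 scale per passage (adjusted p = 0.000748), but 60.7% of the 64-base words of its transcripts also occur in another annotated gene, so its counts are uncertain. H19 fell by 0.96 ± 0.13 (adjusted p = 0.00961, or 0.0803 without KO passage 2 and 0.0689 without WT passage 4).

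The IGF axis as a list did not go 1 way. Of 18 IGF axis genes 9 were higher and 9 lower (median -0.07), 3 of them at least 2-fold lower, and 1 rose and 4 fell. Igfbp4, which binds and holds back insulin-like growth factors, was at 165.1, 76.7 and 48.0 TPM and fell. Across all 28 imprinted genes listed, 26 entered, 6 were at least 2-fold lower and 1 at least 2-fold higher, with a median of -0.35. Dlk1, another imprinted growth regulator, was instead lowest at passage 3, at 20.8, 6.12 and 17.7 TPM. Thbs4, a thrombospondin of tendon and muscle matrix, was at 59.5, 24.1 and 3.81 TPM and fell.

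Enzymes of glycolysis and other genes that the hypoxia factor HIF-1 switches on were lower at passage 4. Of 35 listed, all 35 entered, 34 were lower at passage 4 than at passage 2 and 12 at least 2-fold lower. Their median change was -0.06 from passage 2 to 3 and -0.75 from 3 to 4 as scaled counts, and -0.29 and -0.63 as log2(TPM + 1). The summed level, which the most abundant enzymes dominate, was 14340, 11220 and 8472 TPM, so that it dropped at both steps. The fit called 11 as fallen and none as risen, and 2 to 17 when 1 library was left out, with 2 without WT passage 2 and 2 without WT passage 4.

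The largest differences of the list were in genes that cells use to sense or endure low oxygen. Egln3, an oxygen-sensing prolyl hydroxylase, was at 30.9, 26.4 and 6.89 TPM, Bnip3, a receptor for removing mitochondria, at 251.3, 212.7 and 76.7 TPM, and the carbonic anhydrase gene Car9 at 5.89, 5.80 and 1.03 TPM. None of these 3 was called (adjusted p = 0.121, 0.0879 and 0.535). Their KO changes from passage 2 to 4 were -1.04, -1.04 and -0.15, smaller than the WT changes of -2.01, -1.66 and -1.91. Enzymes of glycolysis itself differed less: Gapdh was at 2640, 2025 and 1693 TPM and Ldha at 1375, 996.2 and 721.0 TPM. Both were called as fallen (adjusted p = 0.0403 and 0.016), but not without KO passage 2, KO passage 4, WT passage 2 or WT passage 4, and Gapdh also not without KO passage 3. Ndufa4l2, a hypoxia-induced mitochondrial protein listed among mural cell genes, was at 134.2, 162.3 and 32.7 TPM.

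Immediate early genes, which serum and handling switch on within minutes, were for the most part lower after passage 2. Of 20 listed and entered, 15 were lower at passage 4 than at passage 2, 5 of them at least 2-fold. The other 5 were higher, 1 of them, Nr4a3, at least 2-fold (1.16), a change of the other sign on log2(TPM + 1). The fit called 3 as fallen and 0 as risen, and 0 to 4 as fallen when 1 library was left out, the lowest without WT passage 2. Fos was at 123.6, 33.3 and 38.0 TPM, Fosb at 44.8, 11.2 and 6.99 TPM, and Egr1 at 218.7, 108.1 and 95.3 TPM. Egr1 fell (adjusted p = 0.00972, or 0.0546 without WT passage 2 and 0.0543 without WT passage 4). Fos did not pass (adjusted p = 0.0982), nor did Fosb, whose KO change of 0.31 was of the other sign.

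Genes of the p53 pathway and inhibitors of the cell cycle had the highest median of the lists with 10 or more genes entered. Of 30 listed and entered, 20 were higher at WT passage 4 than at passage 2, 7 at least 2-fold, and 1 was at least 2-fold lower (median 0.75 as scaled counts and 0.58 as log2(TPM + 1)). The fit called 13 as risen and none as fallen, and 4 to 16 when 1 library was left out, the lowest without WT passage 2. Cdkn2a, whose 2 products hold back CDK4 and protect p53, was at 16.5, 26.0 and 44.5 TPM and rose by 0.73 ± 0.07 (SE) on the log2 scale per passage (adjusted p = 0.00237). It was called in every fit that left out 1 library. Its neighbour Cdkn2b, another CDK4 inhibitor, was at 31.0, 34.5 and 48.8 TPM.

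The direct p53 targets named here were higher at passage 4 as well, while 10 of the 30 genes of the list were lower. Cdkn1a, which encodes the inhibitor p21, was at 184.3, 243.6 and 381.7 TPM and rose (adjusted p = 0.0058, or 0.0528 without WT passage 2 and 0.052 without WT passage 4). Mdm2, which marks p53 for breakdown, was at 73.6, 75.7 and 146.9 TPM and Eda2r, a death receptor of the TNF family, at 20.7, 21.0 and 44.8 TPM. As scaled counts Mdm2 changed by 0.35 over the first step and 0.86 over the second, and Eda2r by 0.27 and 1.02. In both genes the second step was thus the larger. Mdm2 rose (adjusted p = 0.00565, or 0.0502 without WT passage 2), and Eda2r rose in every fit. Bax, which opens the mitochondrial membrane in cell death, was at 82.4, 91.6 and 147.8 TPM, and its KO change of 0.07 was small beside the WT change of 1.02.

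Genes of DNA replication and mitosis were lower by less than 2-fold. Of 40 S phase genes 34 were lower at WT passage 4 than at passage 2 (median -0.24) and 6 fell, and of 36 G2/M genes 35 were lower (median -0.37) and 9 fell. The S phase calls ranged from 0 to 6 when 1 library was left out, with 0 without KO passage 2, KO passage 4 or WT passage 2. The G2/M calls ranged from 0 to 9, with 0 or 1 without KO passage 2, KO passage 4, WT passage 2 or WT passage 4. Mki67, the proliferation antigen, was at 69.2, 47.3 and 36.2 TPM, and Top2a, which untangles replicated DNA, at 147.3, 99.6 and 81.0 TPM. Both fell in the fit, but neither call held without KO passage 2, KO passage 4 or WT passage 4, and that of Top2a was also lost without WT passage 2. No member of either list was 2-fold different. Cdk1, the kinase that starts mitosis, was at 106.3, 107.9 and 83.3 TPM, and the KO medians of the S phase and G2/M lists were -0.71 and -0.70.

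**Figure D3:**
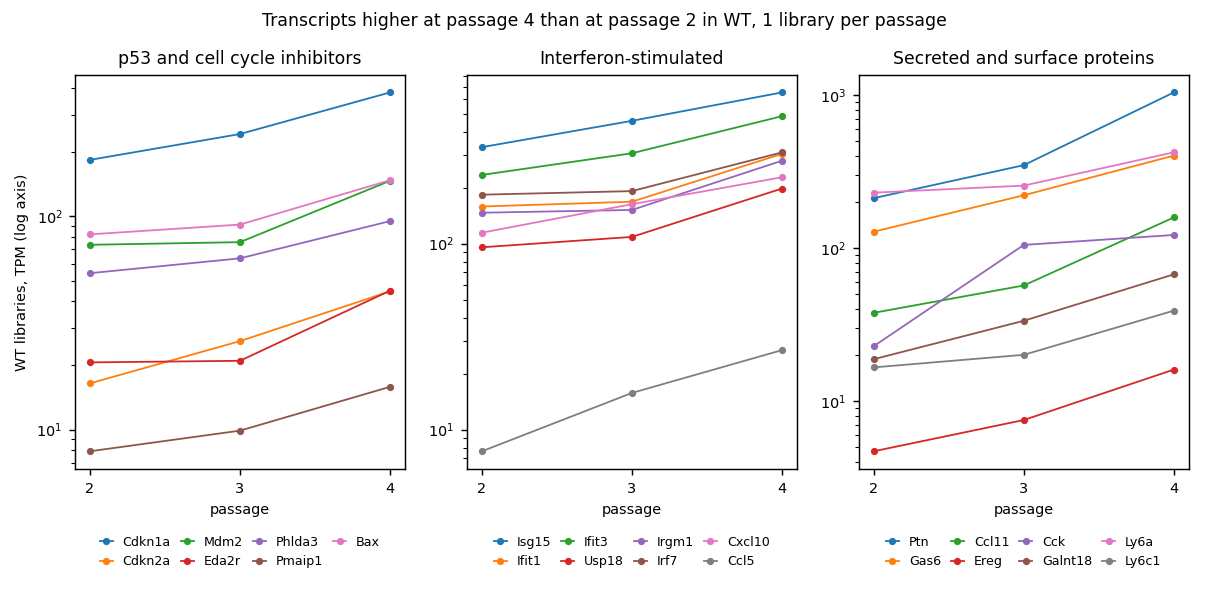
Each line is 1 gene in the 3 WT libraries, with passage on the horizontal axis and TPM on a log axis. All genes drawn are highest at passage 4: Cdkn1a goes from 184.3 to 381.7 TPM, Isg15 from 330.5 to 650.6 TPM and Ptn from 212.2 to 1039 TPM.

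Interferon-stimulated genes, which cells switch on when they sense viral or stray nucleic acid, were higher across almost the whole list. Of 44 listed and entered, 42 were higher at WT passage 4 than at passage 2, 7 at least 2-fold, and none was 2-fold lower (median 0.60 in WT and 0.60 in KO). The fit called 27 as risen and none as fallen. That number was 30 without WT passage 3, 16 without KO passage 3, and 7 to 11 without any one of the other 4 libraries.

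Isg15, the ubiquitin-like modifier that interferon induces, was the most abundant of those named, at 330.5, 457.8 and 650.6 TPM. Its KO change was 0.38 against 1.12 in WT, and its call (adjusted p = 0.0461) held in only 1 of 6 fits that left out a library. Usp18, the enzyme that removes Isg15 again, was at 95.6, 108.7 and 197.8 TPM and rose (adjusted p = 0.0048, or 0.0528 without WT passage 2). Ifit1, which binds foreign RNA, was at 158.4, 168.1 and 303.9 TPM, and Irgm1, a GTPase of autophagy, at 146.7, 151.8 and 279.1 TPM. In TPM, which read low at passage 3, both were nearly level from passage 2 to 3 and higher at passage 4. As scaled counts the medians of the interferon list were 0.20 over the first step and 0.39 over the second. Ifit3 and Ifit3b, at 234.3, 306.3 and 484.6 TPM and at 57.0, 77.4 and 121.0 TPM, rose in every fit, but 45.4% and 39.4% of their 64-base words are shared, so reads can be split between them.

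Some promoters of these genes hold the sequence that interferon-activated factors read. Within 250 bases upstream of RefSeq start sites (GRCm38.p6, both strands searched), the core of the interferon-stimulated response element, searched as GAAA repeated after any 2 bases, was found in 17 of the 32 listed genes that matched the promoter table (53.1%), against 936 of 27025 genes (3.46%). It was found in 15 of 189 matched genes that were at least 2-fold higher at WT passage 4 (7.94%) and in 18 of 572 at least 2-fold lower (3.15%). Among all matched genes that entered it was found in 339 of 10265 (3.3%). The genes at least 2-fold higher include 7 of the interferon list, Isg15 among them, so the shares of the list and of the higher genes overlap. Matches can overlap, as in Isg15, where 3 run into each other, and a match is a description of letters, not of binding. The windows below come from 3 of the named genes, read in each gene's direction, with the match in capitals. In Ifit1 it lies on the opposite strand and so appears as its reverse complement. They lie at chr4:156200866-156200905 (Isg15, minus strand), chr11:48871426-48871465 (Irgm1, minus strand) and chr19:34640789-34640828 (Ifit1, plus strand).
Isg15: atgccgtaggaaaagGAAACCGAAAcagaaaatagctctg
Irgm1: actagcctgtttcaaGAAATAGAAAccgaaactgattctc
Ifit1: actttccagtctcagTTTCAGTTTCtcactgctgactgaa

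Several single genes with a large WT increase are described here. Ptn, which encodes the heparin-binding growth factor pleiotrophin, was at 212.2, 348.4 and 1039 TPM and rose (adjusted p = 0.0111, or 0.127 without KO passage 2 and 0.0653 without WT passage 4). Gas6, the ligand of the AXL receptor, was at 128.2, 221.5 and 401.9 TPM and rose (adjusted p = 0.00163). Cck, the peptide cholecystokinin, was at 22.95, 105.0 and 121.9 TPM, with most of its difference in the first step, and was not called (adjusted p = 0.0864). Ereg, an EGF receptor ligand, was at 4.72, 7.55 and 16.1 TPM. Galnt18, an enzyme of the family that starts O-linked sugar chains, was at 18.9, 33.6 and 67.4 TPM and rose by 0.98 ± 0.05 (SE) on the log2 scale per passage (adjusted p = 0.000748), with changes from passage 2 to 4 of 1.99 in WT and 1.91 in KO.

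Chemokines went both ways. Of 30 listed, 22 entered, 6 were at least 2-fold higher and 5, the phagocyte chemokines above among them, at least 2-fold lower. Ccl11, the eosinophil attractant eotaxin, was at 37.9, 57.1 and 158.6 TPM and rose (adjusted p = 0.0196), a call that was lost without WT passage 2, WT passage 3, WT passage 4 or KO passage 2 (adjusted p = 0.111, 0.0568, 0.067 and 0.0785). Ccl5, an interferon-responsive attractant of T cells, was at 7.64, 15.7 and 26.7 TPM and rose in every fit. Ccl2 and Ccl7, the neighbouring monocyte attractants, were at 821.1, 1193 and 1595 TPM and at 523.2, 827.7 and 970.3 TPM in WT, while their KO changes were -0.02 and 0.11. Ccl24, the chemokine in the study's title, and its receptor gene Ccr3 had no count in any WT library, which allows up to 0.0693, 0.0733 and 0.121 CPM (3 counts per library, counting error only). Tsc2, an inhibitor of mTORC1, the growth kinase complex also named there, was at 42.8, 29.8 and 44.7 TPM. As scaled counts its WT steps were only -0.07 and 0.26.

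Contractile genes were higher for the most part, and markers of fibroblast identity were divided. Of 24 smooth muscle contractile genes 20 were higher at WT passage 4 than at passage 2, 3 at least 2-fold, and 1, Des, was at least 2-fold lower. The fit called 3 as risen and 1 as fallen, with 0 to 3 and 0 to 1 when 1 library was left out, the lowest without KO passage 4. Acta2, the alpha-actin of smooth muscle and myofibroblasts, was at 2044, 2305 and 3001 TPM and rose (adjusted p = 0.0183, with the call lost without KO passage 2, KO passage 4, WT passage 2 or WT passage 4), and Cnn1, calponin, at 42.8, 93.5 and 105.4 TPM, without passing (adjusted p = 0.103).

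Of 29 genes of fibroblast progenitors and fibroblast identity 27 entered, 15 were higher and 12 lower at WT passage 4, 4 and 7 of them at least 2-fold, with a median of 0.03 as scaled counts and -0.13 as log2(TPM + 1). The fit called 2 as risen and 5 as fallen, with 2 to 3 and 0 to 5 when 1 library was left out. Ly6a, the progenitor antigen Sca-1, was at 230.4, 256.1 and 422.5 TPM and rose (adjusted p = 0.00294), and Thy1, the antigen CD90, was at 549.1, 737.1 and 930.8 TPM (adjusted p = 0.155). In contrast Dpp4, a marker of stem-like fascial fibroblasts, was at 4.07, 2.86 and 0.21 TPM, with most of its loss in the second step. Meox2 and Meox1, homeobox factors of early mesoderm, were at 7.97, 4.06 and 2.08 TPM and at 3.46, 2.05 and 1.04 TPM.

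Collagens as a family did not move to 1 side. Of 24 listed, 23 entered, 14 were lower and 9 higher at WT passage 4 than at passage 2, and their summed level was 22290, 18460 and 15990 TPM. Col3a1, the thin-fibre collagen, was at 4129, 2494 and 2511 TPM. The 3 at least 2-fold lower were Col15a1, at 12.9, 5.16 and 4.17 TPM, Col14a1, at 16.2, 5.93 and 4.80 TPM, and Col5a3, at 66.0, 30.9 and 21.7 TPM. All 3 fell, Col14a1 not without WT passage 4. Col4a5, a basement membrane chain, rose, from 26.9 to 33.4 and 43.6 TPM.

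Positional genes of the Hox clusters, which fibroblasts keep from their place in the embryo, gave mixed changes. Of 39 listed, 34 entered, 19 were higher and 15 lower at WT passage 4, and their median was 0.13 as scaled counts and -0.01 as log2(TPM + 1), a scale on which the median of all genes is itself -0.10. Hoxc6, a gene of the trunk and forelimb, was at 30.3, 38.2 and 54.7 TPM and rose (adjusted p = 0.00357), and was called in each fit that left out 1 library. Hoxa2, of the hindbrain and branchial arches, was at 3.04, 1.91 and 1.04 TPM, and Hoxd11, of the distal limb, at 2.74, 1.91 and 1.15 TPM, neither passing (adjusted p = 0.0905 and 0.0595). The fit called 6 Hox genes as risen and none as fallen, and 1 to 6 when 1 library was left out.

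Signals that shape mesenchyme also went both ways. Of 42 genes of the BMP and WNT pathways, 36 entered, 5 were at least 2-fold higher and 7 at least 2-fold lower. Grem1, a secreted BMP blocker, was at 152.5, 185.4 and 311.4 TPM, and Id1, a direct target of BMP signalling, at 22.9, 40.1 and 55.4 TPM. Both rose (adjusted p = 0.0151 and 0.0103), but not without WT passage 2 or WT passage 4. Chrdl1, another BMP blocker, was at 2.26, 1.19 and 0.17 TPM and fell (adjusted p = 0.00319), while Axin2, a target and brake of WNT signalling, was at 2.72, 2.39 and 0.57 TPM.

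Secreted factors linked to senescence had no common direction as a list. Of 41 genes listed, 38 entered, 7 were at least 2-fold higher and 5 at least 2-fold lower, and the median was 0.12 as scaled counts and -0.07 as log2(TPM + 1). Il6, a cytokine that defines this secretome, was at 59.0, 58.0 and 31.3 TPM and fell (adjusted p = 0.00217), called in every fit that left out 1 library. Mmp13, a collagenase, was at 36.4, 48.8 and 75.2 TPM (adjusted p = 0.383).

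Defences against oxidants were modestly higher. Of 29 targets of NRF2, the oxidant-sensing factor, 28 entered, 25 were higher at WT passage 4 than at passage 2, and 2 of them at least 2-fold (median 0.29 as scaled counts and 0.13 as log2(TPM + 1)). Gsta4, which clears products of lipid peroxidation, was at 6.50, 7.15 and 20.9 TPM and rose in every fit that left out 1 library. Nqo1, a quinone reductase, was at 5.2, 6.99 and 10.01 TPM and rose (adjusted p = 0.0105), but not without KO passage 2 or KO passage 4. The fit called 5 of the list as risen and none as fallen, with 1 risen without KO passage 2 or KO passage 4, 3 without WT passage 2 or WT passage 4, and up to 7 without WT passage 3. Of 19 MHC class I genes 17 were higher, against 7206 of all 14086 genes, and 0 at least 2-fold (median 0.35). Among the 17 was B2m, the light chain common to all class I molecules, at 1372, 1470 and 2041 TPM. H2-Q7 was at least 2-fold lower, at 17.7, 16.9 and 7.96 TPM, and H2-Q6 was also lower. The fit called 3 as risen, and 0 without KO passage 2, KO passage 4, WT passage 2 or WT passage 4.

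Passage 3 stood apart from its neighbours for the machinery that makes ribosomes. Of 46 ribosome biogenesis genes listed and entered, all 46 were lower at WT passage 3 than at passage 2 and higher at passage 4 than at passage 3. In WT that order was held by 4169 of the 14086 genes that entered. In KO it was held by 2 of the 46 and by 2197 of the 14086, although 40 of the 46 were lower at KO passage 3 than at passage 2. Their medians were -0.44 over the first step and 0.62 over the second in WT, and -0.16 and -0.19 in KO. The summed level was 3117, 1788 and 2801 TPM in WT, and 4166, 3966 and 3820 TPM in KO. Ncl, which encodes nucleolin of the nucleolus, was at 327.7, 145.2 and 238.5 TPM, and Nop56, a core protein of the particles that methylate ribosomal RNA, at 115.2, 65.4 and 117.3 TPM. Myc, the factor known to drive this programme, was at 65.6, 36.5 and 76.8 TPM.

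Targets of ATF4, the factor that answers amino acid shortage, and the aminoacyl-tRNA synthetases followed the same dip. Of 44 listed, 43 entered and 36 were lowest at WT passage 3. In KO 17 were lowest at passage 3, an order held there by 2197 of the 14086 genes that entered. The first step was shared: 39 were lower at passage 3 than at passage 2 in WT, and 39 in KO. The medians over the 2 steps were -0.62 and 0.65 in WT and -0.25 and -0.01 in KO. Trib3, a pseudokinase induced by ATF4, was 1 of the 5 genes that dipped furthest, at 59.9, 15.7 and 60.2 TPM. Chac1, which breaks down glutathione, was at 11.5, 5.04 and 18.4 TPM, Asns, asparagine synthetase, at 155.5, 92.4 and 159.2 TPM, and Slc7a11, the cystine importer, at 6.73, 4.25 and 6.42 TPM. Among the synthetases Aars, for alanine, was at 158.7, 84.8 and 181.3 TPM, and Eprs, for glutamate and proline, at 236.3, 117.5 and 188.5 TPM. Exceptions were Stc2, the secreted stanniocalcin, which fell from 21.2 to 10.9 and 5.81 TPM, and the stress hormone gene Gdf15, at 3.0, 7.22 and 7.49 TPM (adjusted p = 0.0502). Ddit3, the stress factor CHOP, was at 74.0, 31.2 and 101.5 TPM.

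Part of that list carries a recognisable element upstream. TGATGNAA, the letters of the composite C/EBP and ATF site, was found within 250 bases upstream of 10 of 34 matched list members (29.4%), of 1056 of 27025 genes (3.91%), and of no member of the interferon list, on either strand. The windows of 3 of the genes just given, with the match in capitals, lie at chr6:7693210-7693247 (Asns, minus strand), chr3:50443657-50443694 (Slc7a11, minus strand) and chr2:119351034-119351071 (Chac1, plus strand, with the match on the opposite strand).
Asns: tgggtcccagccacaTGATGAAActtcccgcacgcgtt
Slc7a11: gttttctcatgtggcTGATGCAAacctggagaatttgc
Chac1: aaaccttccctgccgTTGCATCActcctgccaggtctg

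**Figure D4:**
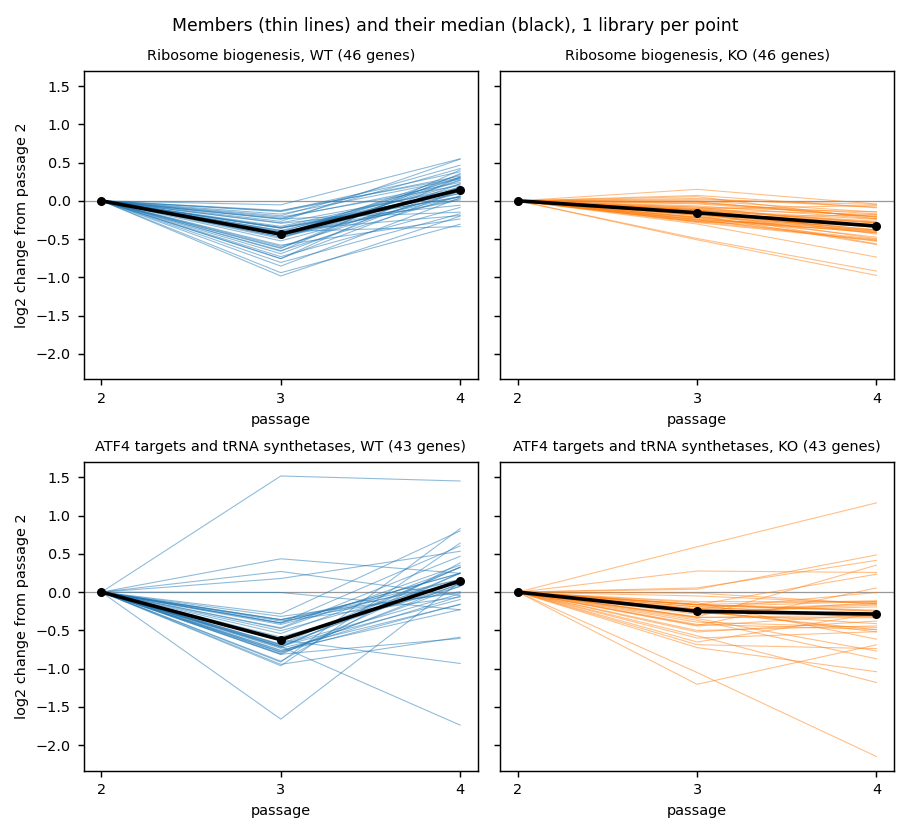
Thin lines are single genes and the black line is their median, as log2 change from passage 2, with WT on the left and KO on the right. The WT medians reach -0.44 and -0.62 at passage 3 and return to 0.15 and 0.15 at passage 4, while the KO medians end at -0.33 and -0.29.

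Genes that peaked at passage 3 in WT included most of 2 lists. Of 25 cholesterol synthesis genes 21 (84.0%) were highest at passage 3, and of 40 replication-dependent histone genes 33 (82.5%), an order held by 28.8% of all genes that entered. On log2(TPM + 1) the numbers were 12 and 17, an order held on that scale by 1701 of the 14086 genes that entered. The medians over the 2 steps were 0.30 and -0.16 for the cholesterol genes, of which 23 had the same order in KO. They were 0.24 and -0.38 for the histone genes, of which 1 had that order in KO, where the medians were -0.60 and -1.11. The linker histone gene Hist1h1a was at 184.4, 107.9 and 104.1 TPM, so that it was among the histone exceptions. No member of either list was 2-fold different between passages 2 and 4 or called in the fit, although 20 histone genes fell without WT passage 2.

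The single genes with the sharpest peaks were members of neither list. They included Ppp1r3c, at 4.48, 10.6 and 2.68 TPM, and Gstt1, at 8.82, 16.0 and 8.05 TPM. Ifitm1, an interferon-induced membrane protein, was at 18.0, 55.8 and 15.8 TPM, Cxcl3, a chemokine for neutrophils, at 7.40, 24.3 and 10.2 TPM, and Rtn2, a protein of the endoplasmic reticulum, at 6.96, 23.5 and 10.6 TPM. The test of whether passage 3 departed from its neighbours differently in WT and KO, added after the data were seen, called no gene with edgeR (smallest adjusted p = 0.845), with 403 (2.43%) at an unadjusted p under 0.05. That fit has almost as many terms as libraries. Calling no gene therefore does not show that passage 3 departed alike in WT and KO. The WT dip is a difference between single libraries, which this test cannot decide on.

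Ribosomal protein genes, which share little of that course, were higher by a small step in WT. Of 61, 59 were higher at passage 4 than at passage 2 (median 0.33 as scaled counts and 0.18 as log2(TPM + 1)), and in KO the median was -0.59. Rplp2, of the ribosome's stalk, was at 701.6, 827.2 and 984.5 TPM. Nuclear genes of oxidative phosphorylation had a like course, with 42 of 47 higher and a median of 0.28 in WT against -0.35 in KO. No member of either list was 2-fold different in WT or called in the fit. Genes encoded by the mitochondrial genome went the other way in WT: 12 of 13 were lower at passage 4, with a median of -0.62 against 0.11 in KO. Among them mt-Co1, of cytochrome oxidase, was at 4937, 3141 and 2886 TPM. The mitochondrial genes held 0.86%, 0.64% and 0.54% of the WT counts and 0.78%, 0.82% and 0.89% of the KO counts.

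The WT course was then set beside the KO libraries, where most of the same genes differed in the same direction. Of the 359 genes at least 2-fold higher in WT, 299 (83.3%) were also higher in KO, against 48.6% of all genes that entered. Of these, 163 (45.4%) were at least 2-fold higher in KO, 14 at least 2-fold lower, and 161 of the 351 tested rose in the fit. Of the 926 lower genes, 789 (85.2%, against 51.4% of all genes) were also lower in KO, 465 (50.2%) at least 2-fold, 23 were at least 2-fold higher, and 368 of 911 tested fell. The fit includes the WT libraries that chose these genes, so its calls are no independent support. The KO changes were smaller: the median was 1.35 in WT and 0.89 in KO for the first set, and -1.553 and -1.003 for the second, and because the genes were chosen on the WT values this difference in size is not a result. In KO itself 444 of the same 14086 genes were at least 2-fold higher (3.15%) and 767 at least 2-fold lower (5.45%).

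**Figure D5:**
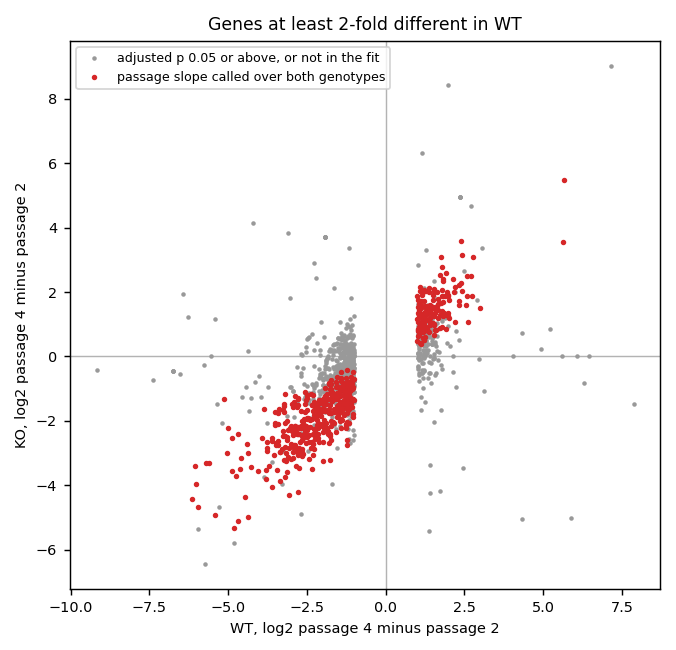
Each point is a gene at least 2-fold higher (359) or lower (926) in WT, with the WT change from passage 2 to 4 on the horizontal axis and the KO change on the vertical axis, both log2. Most points lie in the lower left and upper right, and red points were called by the passage fit over both genotypes.

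Whether a gene's slope over passages differed between WT and KO was tested directly. The quasi-likelihood test of edgeR called no gene (smallest adjusted p = 0.109), with 1137 genes (6.85%) at an unadjusted p under 0.05. DESeq2 called 83, limma on log2(TPM + 1) called 2 and limma-voom none. Without KO passage 2, KO passage 3 or KO passage 4 the edgeR test called 3, 5 and 10. The side-by-side WT and KO values above are therefore descriptions, and none of the named genes is shown to follow a different course in WT.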

How the data were processed

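RNA of 6 libraries was analysed, 3 of them the WT course. Per the submitters' processing notes, the authors trimmed reads with Trimmomatic 0.39 and quantified them with RSEM against GRCm38. No source used here gives the annotation release or strand setting, so overlapping, antisense and near-identical genes are uncertain. The deposited tables give the authors' expected counts (RSEM shares ambiguous reads among genes, and 12.0% to 15.8% of values were not whole) and their TPM values. Of 55487 genes, 55227 (99.5%) matched GENCODE M21.

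Expected counts were rounded and scaled by TMM. A count of 0 allows up to 3 counts per library (counting error only). WT changes used a prior count of 2 and genes with at least 1 CPM in a WT library. The passage slope and its difference between genotypes were tested with edgeR 4.0.16 in R 4.3.3 (2-sided quasi-likelihood, Benjamini-Hochberg adjusted p under 0.05, minimum count 10), and with DESeq2 1.42.0 and limma 3.58.1 as alternatives, after a check on simulated data.

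Members and 45 gene lists were chosen with earlier results of these data known. Named genes are the 15 largest increases and decreases (protein-coding, mean at least 4 CPM, passage 3 between the others), the 5 highest and 5 lowest at passage 3, and up to 4 members of each list. Further members of a list that the text describes, and Gas6, Ccl2, Ccl7 and Ddit3, were named outside that rule after their values were seen. A gene with 25% or more of its 64-base words in another gene is called uncertain: Tgtp1, Gm49361, Cyp4a12b, Chtf8, Gm37988 and Gm49378 met the rule and are not described for that reason. Promoters are RefSeq windows of GRCm38.p6.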

Additional observations from a re-analysis of the deposited data

Results flagged for a closer look

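4 gene lists were marked because the WT median went one way at both steps and the KO median the other way at both, a difference that was not tested at the level of a list and for which no single gene was called. Nuclear oxidative phosphorylation genes had a median log2 change from passage 2 to 4 of 0.284 in WT and -0.352 in KO. Mitochondrially encoded genes had -0.625 and 0.111, cytosolic ribosomal protein genes 0.329 and -0.592, and imprinted genes -0.352 and 0.021. The mitochondrially encoded list includes mt-Co2 and mt-Atp6, whose counts are uncertain because of shared sequence. For the oxidative phosphorylation list the WT medians over the 2 steps were 0.246 and 0.028 as scaled counts. On log2(TPM + 1) they were -0.013 and 0.13, so on that scale the WT steps did not go one way.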

How the results depend on the processing

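The WT counts of genes at least 2-fold higher and lower (359 and 926) became 172 and 534 on log2(TPM + 1), 190 and 395 with a minimum of 5 CPM, and 1328 and 3191 with no filter, which admits genes with a few counts. Single steps gave 205 and 350 (passage 2 to 3) and 219 higher (3 to 4). The slope calls (461 and 577) became 771 and 938 with DESeq2, 896 and 1547 with no filter, 0 and 0 with the genotype tag, and 97 to 583 and 165 to 703 without 1 library. The cause of these shifts was not tested. The difference of slopes (0 genes) became 83 with DESeq2, 289 with no filter, 2 with limma on log2(TPM + 1), and 0 to 10 without 1 library. Of 45 list medians all kept sign and side of 2-fold under other size factors and prior counts, and 36 did on log2(TPM + 1). Of 210 named genes 8 changed sign on log2(TPM + 1): Nr4a3, from 1.16 to -0.31, and 7 whose change was at most 0.118 in size. No paired analysis was possible because the labels give no replicate numbers and each group is 1 library. Depth limits genes under about 1 CPM, most of all at passage 4, the shallowest WT library. Single libraries per passage mean that culture, library and passage cannot be told apart.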
